A study of Homo sapiens with 4 samples.

Results

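Dihydroberberine was added to sunitinib in A549 cells, and the RNA of cells given both drugs was set against that of cells given sunitinib alone. A549 is an established human lung adenocarcinoma line. The cells given both received 25 μmol/L dihydroberberine plus 2 μmol/L sunitinib for 48 h, and the sunitinib cells 2 μmol/L sunitinib for 48 h, so every cell in this comparison had been exposed to sunitinib. A second pair, 25 μmol/L dihydroberberine for 48 h and untreated cells, shows the same drug without sunitinib and shares no array with the first. Each of the 4 conditions held 1 array, so no difference below has a replicate check, no test was run, and "higher" or "lower" compares single arrays. Of 18132 genes with a named probe set, 10644 were kept because the combination or the sunitinib array reached log2 6.75, the median of all gene probe sets, and 481 of these had 1 of the 2 arrays under it. This floor is not a limit of detection.

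Dihydroberberine is the reduced form of berberine, a plant alkaloid known as an inhibitor of respiratory complex I and an activator of the energy sensor AMPK. Sunitinib blocks receptor tyrosine kinases, above all the VEGF, PDGF and KIT receptors. Signals from such receptors run through ERK to the immediate early genes, whose products include AP-1 subunits and the phosphatases that switch the kinases off again. Glucose sensing runs on another branch, in which MondoA and its partner MLX bind carbohydrate response elements of TXNIP and ARRDC4 when glucose phosphates accumulate.

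The 2 arrays were closely alike, with a correlation of 0.994 across gene probe sets, medians of 6.76 and 6.76, and a median difference of -0.01. The Alu control probe set differed by 0.001 and the 3 probe sets for 18S rRNA by between -0.02 and 0.07, and background probes of 15 to 25 G or C bases by a median of -0.04. Spiked bacterial RNAs that pass through labelling were lower on the combination array, with medians of 7.81 and 8.23 over 24 probe sets. Those added at hybridisation had medians of 10.88 and 10.81, a difference of 0.07. Their part in the results was not tested. Of 9 markers of the line, KRT8, KRT18, KRT7, KRT19, SFTPC and SFTPB lay above the floor, and EPCAM, CDH1 and NKX2-1 lay under it on both arrays. Of 22 markers of monocytes, lymphocytes, fibroblasts, endothelium and neurons 13 were under it on both arrays, among them CD14, PTPRC, COL1A1 and PECAM1. CD68, CD79A, VWF, KDR and the 3 neuronal ones (RBFOX3, SYP and TUBB3) were above it on both. CSF1R and PDGFRB were above it on the sunitinib array only. The summed log2 level of the 22 was 136 on the combination array and 138 on the sunitinib array. Differences of the 22 ran from -0.51 to 0.55.

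Few genes differed by much when dihydroberberine was added to sunitinib, and most of those that did were higher. A 2-fold size was reached upward in the combination by 79 genes (0.742% of those kept), and downward by 11 genes (0.103%). At a size of 1.5-fold the numbers were 386 (3.63%) and 157 (1.48%), and 10101 genes lay within it. These counts, and those of gene lists below, use the deposited values. Of the 79 and 11 genes, 21 and 2 were kept through the higher array alone, so the size of their difference is less certain. With values under the floor raised to it, 64 genes (0.601%) were past 2-fold upward and 9 (0.0846%) downward, and 354 (3.33%) and 140 (1.32%) past 1.5-fold. With both arrays above the floor, 58 and 9 were past 2-fold. The difference was above 0 for 50.8% of genes and below 0 for 49.1%, with a median of 0.004. Counts in the gene lists below are to be read against these shares of all genes. Probe sets of 1 gene on the same pair of arrays gave a spread with a median SD of 0.09 over 6183 genes, which measures no error between cultures. Of the 79 higher genes, 48 had 2 or more probe sets above the floor, and all of these had the same sign in 46. ADARB1 and CCDC9B were the exceptions. In 17 of the 48 every probe set passed 2-fold. All 7 lower genes with several probe sets had the same sign throughout, and in 2 of the 7 every probe set passed 2-fold. Taking each gene as the mean of its probe sets gave 47 higher and 7 lower genes, and a floor at the 75th percentile gave 49 and 6. At the edge, TBC1D2 and SHISA2 lay just inside 2-fold at 1.001 and 1.01, and MAP2 and SLC40A1 just outside at 0.999 and 0.997, and on the lower side LIMK2 (-1.01) and TK1 (-0.98) lay on either side of it.

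The gene with the largest difference was TXNIP, an arrestin-like protein that binds thioredoxin and restrains glucose uptake. Its log2 level was 8.30 in the combination, against 12.14 with sunitinib, and 7.06 with dihydroberberine against 11.49 in untreated cells. Both arrays with dihydroberberine were thus far below both without it. The combination was 14.4-fold lower than sunitinib, and the 5 probe sets gave differences from -4.00 to -3.01. ARRDC4, its close relative among the alpha-arrestins, was the lower gene of next largest size, at 6.93 in the combination, against 8.62 with sunitinib (3.21-fold lower). With dihydroberberine alone it lay at 5.12, under the floor, against 7.82 in untreated cells. The other 10 measured members of the glucose-sensing list ran from -0.21 for HK2, a hexokinase, to 0.40 for PFKFB2, an enzyme that makes an activator of glycolysis. ARRDC3 (0.03), ARRDC2 (-0.03) and the sensors MLXIP (MondoA, -0.10) and MLX (0.02) were among them, and the median of all 12 was -0.06.

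The promoter of TXNIP is shown because it holds the element through which this gene is known to be read by MondoA. The window runs from 250 bases before to 50 bases after the RefSeq start, chr1:145996530-145996829 in GRCh38.p14 on the minus strand. The capitals mark a pair of CACGNG boxes spaced by 5 bases, 88 to 72 bases before the start.
TXNIP: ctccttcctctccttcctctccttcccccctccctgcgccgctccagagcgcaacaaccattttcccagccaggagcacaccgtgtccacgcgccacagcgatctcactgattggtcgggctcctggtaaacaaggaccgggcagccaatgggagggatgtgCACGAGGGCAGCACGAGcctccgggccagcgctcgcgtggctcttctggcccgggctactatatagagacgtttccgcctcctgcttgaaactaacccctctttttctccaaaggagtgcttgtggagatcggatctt
Such a pair, searched on both strands, was present in 14 of 8850 promoters of kept genes (0.158%). It was found in 0 of 59 promoters of the higher genes and in 1 of 10 of the lower genes, TXNIP itself. The promoter of ARRDC4 holds no such match in this window.

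CXCL8, PTX3 and IL1A, which encode secreted inflammatory proteins, were among the higher genes, and CXCL8 had the largest difference of the 79. CXCL8, the neutrophil chemokine interleukin 8, was at log2 14.04 in the combination, against 11.49 with sunitinib (5.87-fold higher), and 3 probe sets gave 2.55 to 3.19. With dihydroberberine alone it was at 14.55, against 12.83 in untreated cells. The sunitinib array was the lowest of the 4. PTX3, a long pentraxin of innate immunity, was 3.29-fold higher, at 9.55 against 7.83. IL1A, an alarmin cytokine, was 2.79-fold higher, at 8.81 against 7.33. Other ligands differed less, among them CXCL5 (0.79) and CXCL1 (0.65), both neutrophil chemokines, and LIF, an interleukin 6 family cytokine (0.66). CXCL3 (-0.10) and IL6 (-0.22) did not share that direction. Past 1.5-fold were 3.63% of all genes upward and 1.48% downward. Of 7 measured chemokine genes 3 were at least 1.5-fold higher and 0 lower, with a median of 0.42. Of 10 interleukin and acute phase genes 5 were higher and 1, the receptor IL6R (-0.62), lower, with a median of 0.29. IL6R was under the floor in the combination and did not reach 1.5-fold once raised to it. Of the 10, 5 were above 0 and 5 below. The accessory receptor chain IL1RAP (0.84) and the signal transducer IL6ST (0.59) were higher. The 13 measured NF-kB subunits and inhibitors held no gene past 1.5-fold, with a median of 0.07 and a range from -0.46 for NFKBIZ to 0.49 for BCL3.

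Genes of adenosine and prostaglandin signalling were mixed. NT5E, the nucleotidase CD73 that makes adenosine, was 3.54-fold higher, at 10.32 in the combination and 8.50 with sunitinib, and its 3 probe sets gave 1.498 to 1.83. ADA, which removes adenosine, had a difference of 0.85 and PTGER4, a prostaglandin E2 receptor, one of 0.93. PTGES (0.02), PTGES2 (-0.12) and PTGES3 (-0.01), which make prostaglandin E2, stayed within 1.5-fold, and the median of the 10 measured genes was 0.04. Interferon-stimulated genes ran from -0.30 for IFI27 to 0.22 for IFIT3, with 0 of 10 past 1.5-fold.

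Genes downstream of ERK were higher in part. Of 16 measured feedback phosphatases and inhibitors 5 were at least 1.5-fold higher and 0 lower, 13 were above 0, and the median was 0.19. DUSP5, a nuclear phosphatase of ERK, was at 10.78 in the combination, against 9.02 with sunitinib (3.39-fold higher). DUSP1, which removes phosphate from p38 and JNK as well, was at 12.96 against 11.73 (2.33-fold), and its 4 probe sets gave 1.22 to 1.52. DUSP6, the cytosolic phosphatase of ERK, had a difference of 0.93. SPRY4 (0.67) and SPRY2 (0.59), inhibitors of receptor signalling upstream of ERK, were higher, and the transcription factors ETV4 (0.17) and ETV5 (0.15), which are ERK outputs too, stayed near 0.

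Of 18 AP-1 and immediate early genes 7 were at least 1.5-fold higher, 5 of them past 2-fold, and 0 lower, with a median of 0.40. With values raised to the floor, which takes out MAFF, these counts were 6 and 4. EGR1, a zinc finger factor induced within minutes by growth factors, was at least 2.73-fold higher, at 8.20 in the combination against 6.23, under the floor, with sunitinib. Its 4 probe sets disagreed in size, from 0.05 to 1.97. The AP-1 subunits FOSL1 and FOSL2 were 2.21-fold and 2.03-fold higher, but the 6 probe sets of FOSL1 ran from 0.17 to 1.14. JUN (0.65) and JUNB (0.61) were higher by less, and FOS (-0.12), FOSB (-0.12) and JUND (-0.13) were slightly below 0. IER3, an early response gene, was 2.11-fold higher. MAFF, a small MAF factor, was at 7.13 in the combination and under the floor with sunitinib, at least 1.30-fold higher.

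Stretches of 3 promoters from RefSeq (GRCh38.p14) are shown because these genes are past 2-fold in the chemokine, AP-1 and ERK feedback lists and hold motifs known for each. CXCL8 is at chr4:73740402-73740516, plus strand, with an AP-1 site 137 to 131 bases and a kappaB site 91 to 83 bases before the start in capitals. EGR1 is at chr5:138465344-138465435, plus strand, with 2 CArG boxes, which bind serum response factor. DUSP1 is at chr5:172771283-172771350, minus strand, with a cyclic AMP response element 125 to 118 bases before the start.
CXCL8: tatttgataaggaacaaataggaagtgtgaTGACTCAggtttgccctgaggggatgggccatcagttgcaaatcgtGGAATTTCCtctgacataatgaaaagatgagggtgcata
EGR1: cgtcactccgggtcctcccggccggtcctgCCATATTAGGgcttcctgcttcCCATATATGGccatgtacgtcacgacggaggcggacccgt
DUSP1: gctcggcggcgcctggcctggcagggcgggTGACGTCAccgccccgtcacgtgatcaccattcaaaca
Over the 59 promoters available for higher genes, the AP-1 letters TGANTCA were found in 6 (10.2%), against 4.43% of all 8850, and the element TGACGTCA in 5 (8.47%), against 3.38%. A CArG box was found in 2 (3.39%), against 0.983%. The kappaB letters GGAATTTCC were found in 1 (1.69%), CXCL8 itself, against 0.384%, and a second kappaB form in 1 (1.69%), against 2.16%. The letters TNGCGTG of the aryl hydrocarbon receptor were found in 1 (1.69%), against 7.36%, the sterol response letters TCACNCCAC in 2 (3.39%), against 1.04%, and CCAAT in 19 (32.2%), against 36.6%. Among the 10 promoters of lower genes, TNGCGTG and CCAAT were each found in 3, TGANTCA, TGACGTCA and the second kappaB form each in 1, and the CArG box, GGAATTTCC and TCACNCCAC in 0. TGANTCA, TGACGTCA and the CArG box read alike on both strands, and both strands were searched. These counts describe letters in a 300-base window and were not tested.

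Targets of YAP, the transcriptional coactivator of the Hippo pathway, had a median of 0.48, with 4 of 12 at least 1.5-fold higher and 0 lower. CCN1, a matricellular protein, was at 11.62 in the combination, against 9.81 with sunitinib (3.49-fold higher), and CCN2, its relative, at 13.50 against 12.21 (2.44-fold), with 1.28 to 1.84 over 3 probe sets. AXL, a receptor tyrosine kinase, was at least 2.92-fold higher, at 8.30 against 6.53. CRIM1, a membrane protein that binds BMPs, had 0.76, whereas the coagulation receptor F3 had -0.26.

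In the list of matrix proteases, their inhibitors and plasminogen activation, 5 of 12 measured members were at least 1.5-fold higher and 0 lower, with a median of 0.42. With values raised to the floor, which takes out MMP1, this count was 4. PLAU, the urokinase that activates plasminogen, was at 11.42 in the combination, against 9.94 with sunitinib (2.79-fold higher), and its receptor PLAUR had a difference of 0.95, with 0.02 to 1.20 over 5 probe sets. MMP1, the interstitial collagenase, was at least 1.23-fold higher, at 7.05 against 5.57. TIMP2, an inhibitor of such proteases, was at 0.96. Collagens, laminins and integrins had a median of 0.15, and ITGA2, a collagen receptor chain, was the only 1 of 19 past 1.5-fold (0.63). Among 8 mesenchymal genes the smooth muscle actin ACTA2 was 2.06-fold higher and the repressors ZEB1 (0.82) and ZEB2 (0.65) were higher, while VIM (0.07) and FN1 (-0.05) were not. Of 7 epithelial genes the tight junction protein CLDN1 (0.61) was past 1.5-fold, and KRT18 (0.02) and KRT19 (0.001) were flat.

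Other leading genes follow, of which NDRG1 also belongs to the hypoxia list. DLC1, a GTPase-activating protein, was 3.59-fold higher, at 9.50 in the combination, against 7.65 with sunitinib, and ARHGEF28, a guanine nucleotide exchange factor, was 2.96-fold higher, at 9.89 against 8.32. UBASH3B, a phosphatase of receptor kinase signalling, was 2.97-fold higher, and PAPPA, a protease that frees insulin-like growth factors, 2.92-fold, with 0.91 to 1.58 over 7 probe sets. DAW1, a factor for ciliary dynein assembly, was 2.83-fold and GDPD1, a lipid phosphodiesterase, 2.80-fold higher. NDRG1, a stress-induced protein, was 2.67-fold higher, but 4 probe sets ran from 0.34 to 1.42. With sunitinib under the floor, MARCHF4, a ubiquitin ligase, was at least 3.80-fold higher, STON1, an endocytic adaptor, at least 2.91-fold, and RBM24, an RNA-binding protein, at least 2.43-fold. The plot of levels on the 4 arrays shows that for all 15 higher genes the dihydroberberine array was above the untreated one too, by 0.74 for UBASH3B to 2.85 for CCN1.

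**Figure D1:**
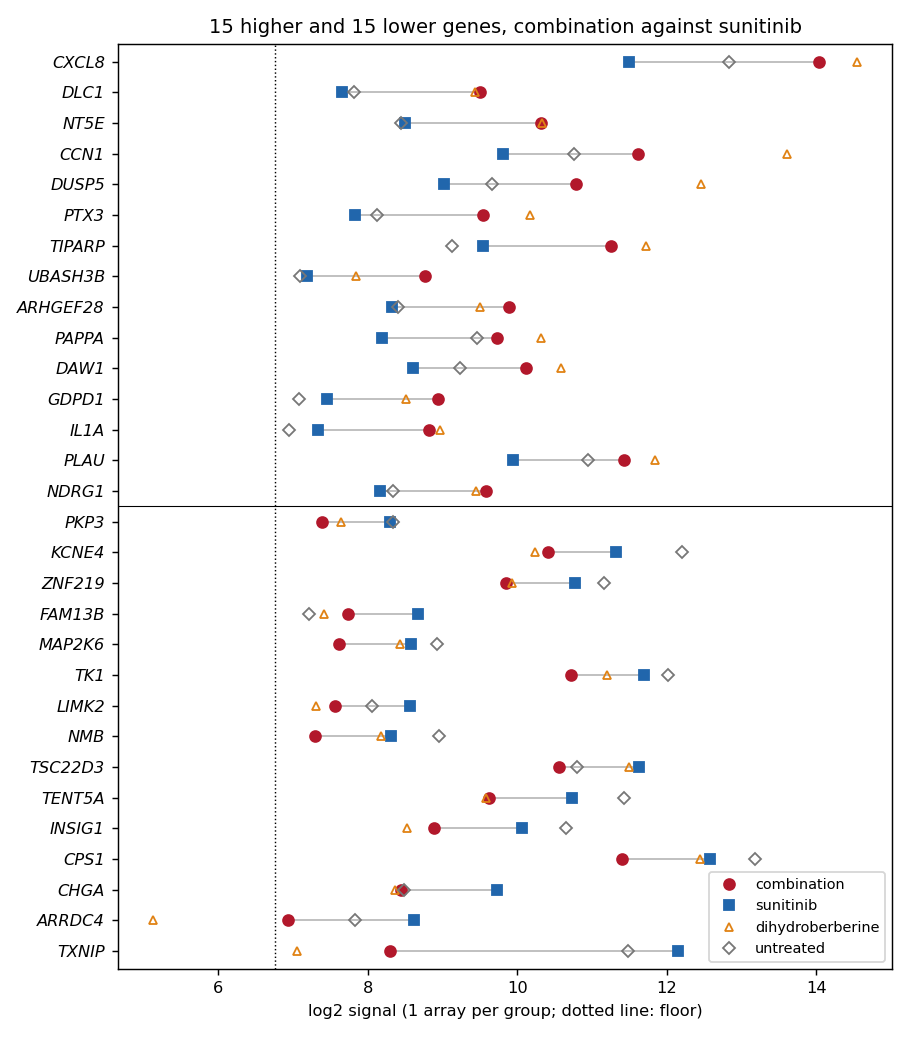
Log2 signal on each of the 4 arrays for the 15 highest and 15 lowest genes with both arrays above the floor, with 1 point per array and a grey line from combination to sunitinib. TXNIP has the longest line, at 8.30 in the combination and 12.14 with sunitinib and the 6 lower genes from TK1 to PKP3 lie within 2-fold.

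The aryl hydrocarbon receptor list, which responds to many planar compounds, had a median of 0.44, with 4 of 9 members at least 1.5-fold higher and 0 lower. With values raised to the floor, which takes out CYP1A1, the count was 3 and the median 0.24. TIPARP, an ADP-ribosyltransferase that restrains the receptor, was 3.29-fold higher, at 11.26 in the combination and 9.54 with sunitinib. The receptor AHR itself had 0.62 and its repressor AHRR 0.59, but 1 of the 2 probe sets of AHRR gave 0.04. CYP1A1, the classical target enzyme, was near the floor at 6.99 and 6.37, at least 1.18-fold higher if 6.99 is signal. Background probes had medians of 6.95 and 6.99 on these arrays. CYP1B1 had 0.44, and NQO1 (-0.01) and CYP1A2 (-0.23) were not higher. Of 16 NRF2 genes 1, the oxidative stress protein OSGIN1, passed 1.5-fold, at -0.71, and none of 7 drug efflux pumps did, with ABCC3 at 0.34 and ABCC2 at -0.20 as their extremes.

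Genes of sterol synthesis were lower by small amounts. Of 19 measured members 15 were below 0, against 49.1% of all genes, and 4 above, and the median was -0.33. At least 1.5-fold lower were 2, against 1.48% of all genes. INSIG1, which holds the sterol sensor in the endoplasmic reticulum, was at 8.89 in the combination, against 10.06 with sunitinib (2.25-fold lower). MVK, the mevalonate kinase, was at 7.90 against 8.61. IDI1 (-0.53), HMGCS1 (-0.46), SQLE (-0.43) and the regulators SREBF1 (-0.41) and SREBF2 (-0.40) were also below 0, while INSIG2 (0.43) and STARD4, a sterol carrier (0.31), lay above 0. Fatty acid synthesis had a median of -0.14 with 11 of 16 below 0. FADS2, a desaturase, was 1.84-fold lower, at 8.59 against 9.48, and ELOVL6 (-0.58) and GPAM (-0.55) were lower by less than 1.5-fold. ELOVL7, another elongase, was at 0.60, but 1 of its 2 probe sets above the floor was at 0. The list of AMPK, the energy sensor named above, had a median of 0.004, with the catalytic subunits PRKAA1 (0.50) and PRKAA2 (0.37) above 0 and the kinase SIK2 (-0.66) 1 of 14 past 1.5-fold.

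Replication genes were all lower, most of them by less than 1.5-fold. All 39 measured members had a difference below 0, against 49.1% of all genes, from -0.98 for TK1, the thymidine kinase of S phase, to -0.02 for RFC4, a clamp loader subunit, and 7 were at least 1.5-fold lower (median -0.32). TK1 was at 10.72 in the combination, against 11.70 with sunitinib, and FEN1, the flap endonuclease, at 10.34 against 11.08. Helicase subunits MCM4 (-0.59), MCM7 (-0.59) and MCM2 (-0.53) had larger differences than RRM1 (-0.06), a ribonucleotide reductase subunit. In such bulk RNA, fewer cycling cells and less RNA per cell cannot be told apart. Of 31 mitotic genes 27 were below 0 and 3 at least 1.5-fold lower, with a median of -0.30. KIF20A, a kinesin of cytokinesis, had -0.76, BIRC5, survivin, -0.66 over 9 probe sets that ran from -0.76 to -0.43, and CCNB1, cyclin B1, -0.65. CDC25B (0.22), KIF23 (0.11) and KIF14 (0.08) lay above 0. Of 7 measured replication-dependent histone genes 6 were below 0 and 2 were past 1.5-fold (median -0.50), H2BC5 at 7.44 in the combination against 8.19 with sunitinib, and H2BC21, which was under the floor in the combination. With values raised to the floor, H2BC5 was the 1 gene past 1.5-fold and the median was -0.41. The labelling method primes from poly(A) tails, which most such histone transcripts lack.

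Targets of p53 lay on the other side. Of 17 measured members 16 were above 0, against 50.8% of all genes, and the median was 0.42. At least 1.5-fold, 3 were higher and 0 lower, against 3.63% and 1.48% of all genes. CDKN1A, the p21 inhibitor of cyclin-dependent kinases, was at 11.34 in the combination, against 10.54 with sunitinib (1.74-fold higher). RRM2B, a ribonucleotide reductase subunit for repair, had 0.76, MDM2, the ubiquitin ligase of p53, 0.72 with 0.35 to 0.72 over 6 probe sets, and BBC3, the killer protein PUMA, 0.58. TP53INP1 (-0.22) was the member below 0. Among G1 regulators CCNE2, cyclin E2, had -0.61 and CCND1, cyclin D1, 0.22. In the apoptosis list 9 of 15 measured members were above 0 and 6 below, with a median of 0.19. At least 1.5-fold, 4 were higher and 1, the survival factor BIRC5 (-0.66), was lower. MCL1, a survival protein, was 2.13-fold higher, but 6 probe sets ran from 0.03 to 1.25. The survival factors BIRC2 (0.65) and BCL2L1 (0.59) were higher too.

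**Figure D2:**
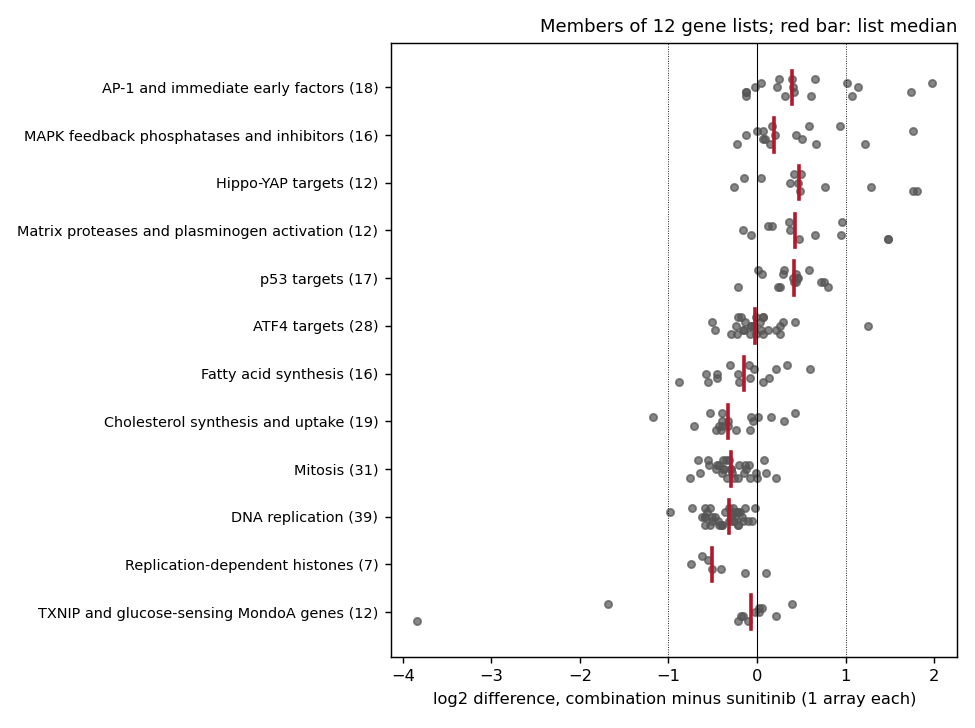
Log2 difference, combination minus sunitinib, for every measured member of 12 lists, with the number of members in brackets, a red bar at the median and dotted lines at 2-fold. All 39 replication genes lie left of 0 and 16 of 17 p53 targets right of it, while TXNIP and ARRDC4 stand apart from a list whose median is -0.06.

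Stress genes of the integrated response were flat in this pair. Of 28 measured ATF4 targets 1 passed 1.5-fold, GDF15, a stress-induced cytokine, at 12.12 in the combination and 10.87 with sunitinib (2.39-fold higher), with 0.46 to 1.48 over 5 probe sets. The other 27 ran from -0.51 for PHGDH, of serine synthesis, to 0.42 for STC2, and the median was -0.03. Chaperones of the endoplasmic reticulum had a median of 0.05, with SEL1L, a degradation factor, at 0.66. The cytosolic heat shock list had -0.09, with HSPA1B (-0.62) and DNAJA1 (-0.59) at the low end. Mitochondrial complex I, which berberine is known to inhibit, had 0 of 36 subunits past 1.5-fold. Of the 36, 28 were below 0, against 49.1% of all genes, and the median was -0.07. Complexes II to V had 0 of 29 past 1.5-fold and a median of -0.05. Glycolysis and hypoxia genes had a median of -0.04, with NDRG1 and ANGPTL4 (0.74) high and PDK1 (-0.61) low. Fatty acid oxidation was at 0.02. Autophagy had 2 of 25 at least 1.5-fold higher, WIPI1 (0.77) and PIK3C3 (0.64), and a median of 0.10. Lysosome genes had a median of 0.14 with 17 of 23 above 0, against 50.8% of all genes. Metallothioneins and zinc control had a median of 0.01, and MT1X was at -0.48 while the zinc transporters SLC39A10 (0.71) and SLC30A1 (0.55) were above 0. Receptors that sunitinib inhibits ran from -0.20 for CSF1R to -0.10 for FLT4 over the 4 measured members, and ERBB ligands and receptors had a median of -0.14, with NRG4 at -0.52.

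The remaining lower genes came from separate functions. CHGA, chromogranin A of secretory granules, was at 8.44 in the combination, against 9.73 with sunitinib (2.43-fold lower), and CPS1, the first enzyme of the urea cycle, at 11.40 against 12.58 (2.26-fold), with -1.22 to -0.998 over 3 probe sets. TENT5A, a poly(A) polymerase, was at 9.62 against 10.73, and TSC22D3, the glucocorticoid-induced GILZ protein, at 10.56 against 11.62. NMB, neuromedin B, was 2.03-fold lower and LIMK2, a kinase of cofilin, 2.01-fold. The next were MAP2K6, a kinase of p38 (-0.97), FAM13B (-0.94), ZNF219, a zinc finger protein (-0.92), KCNE4, a potassium channel subunit (-0.91), and PKP3, a desmosome protein (-0.91). Of genes with the combination under the floor, THSD7A was at least 1.86-fold lower and SNN at least 1.74-fold. PCDH7, PIK3R3 and HOXB5 were at least 1.63-fold, 1.60-fold and 1.59-fold lower. In the clock list PER2 (-0.82) was low and BMAL1 (0.73), which activates it, high. The glucocorticoid list had a median of -0.06, with the kinase SGK1 at 0.76.

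The same genes were then read in dihydroberberine against untreated cells, where 1.03% were past 2-fold upward and 3.48% downward, and 4.74% and 12.6% past 1.5-fold. The difference there was above 0 for 46.2% of genes and below 0 for 53.7%. Of the 79 higher genes 74 also had a positive difference there and 43 passed 2-fold, and of the 11 lower genes 10 had a negative one and 4, TXNIP, ARRDC4, INSIG1 and TENT5A, passed 2-fold. Over all genes the sign was the same for 62.2%. Set against untreated cells, the combination was at least 2-fold higher for 45 of the 79 genes and within 2-fold for 34. The spread of differences was narrower in the first pair, with an SD of 0.30 against 0.47. Genes were kept on the arrays of the first pair only, so the second was not filtered on its own arrays. The dihydroberberine array differed from untreated in controls that were level in the first pair, with -0.41 for Alu, -0.68 for 18S rRNA and 0.45 for the G- and C-rich background probes, and the part of this in the comparison was not tested. Because each pair is 1 array against 1, no interaction could be tested, and all differences between the pairs below are values only.

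Several genes were higher with sunitinib present and not without it. MIR22HG, the host transcript of miR-22, was at 8.82 in the combination, against 7.65 with sunitinib (2.24-fold higher). It had 6.79 with dihydroberberine against 7.82 in untreated cells, a difference of -1.03, and was the 1 gene past 2-fold in opposite directions. EPAS1, the hypoxia factor HIF-2 alpha, had 1.20 and -0.08 in the 2 pairs, although its second probe set gave 0.13 in the first. SULF2, a sulfatase of heparan sulfate, had 1.20 and 0.01, although its second probe set gave 0.39 in the first. FOSL2 had 1.02 and -0.29, and SERTAD4 1.13 and -0.46. ZFP36L1, a protein that speeds decay of AU-rich messages, had 1.05 and -0.14, but 0.16 in the first pair as a mean of its probe sets. The opposite excess was found for EGR1, with a raw difference of 1.97 and 4.93, FOSL1 with 1.14 and 2.46, CCN1 with 1.81 and 2.85, and MMP1 with 1.48 and 3.04. TSC22D3 had -1.07 and 0.70, and CHGA -1.28 and -0.13.

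**Figure D3:**
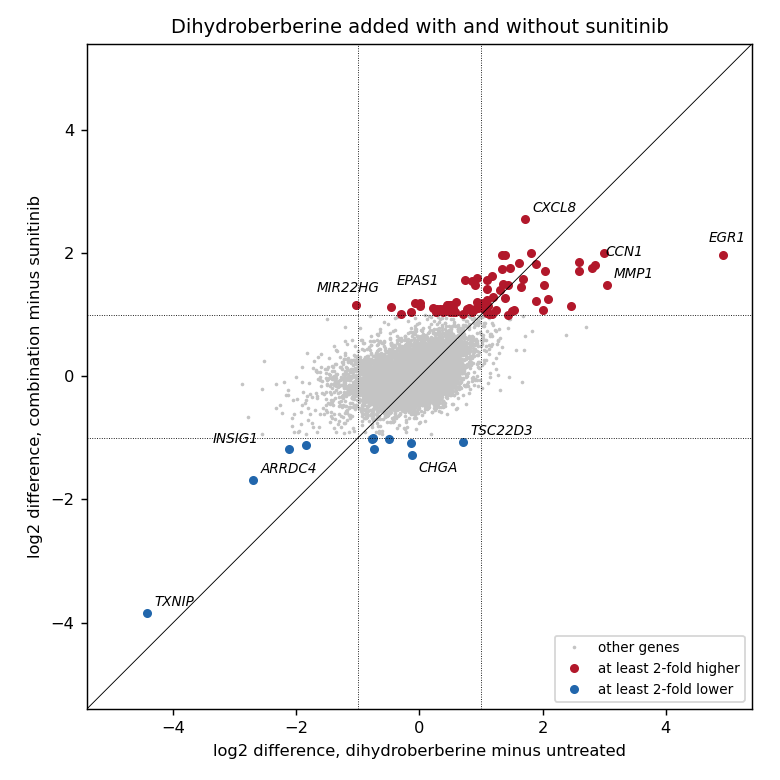
Log2 difference per gene in the combination minus sunitinib (vertical) against dihydroberberine minus untreated (horizontal), with 1 point for each of 10644 genes, dotted lines at 2-fold and a diagonal of equal values. Most of the 79 red points lie right of 0, TXNIP lies near the diagonal at the lower left, and EGR1, at 1.97 and 4.93, lies far below it.

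Gene lists divided in the same way. Sterol synthesis had medians of -0.33 with sunitinib present and -0.56 without it, DNA replication -0.32 and -0.49, mitosis -0.30 and -0.44, and AP-1 0.40 and 0.43. These kept a sign in both pairs. Targets of p53 had 0.42 and -0.01, where MDM2 was at 0.72 and -0.64. The ID, BMP and TGF-beta list had 0.27 and -0.28, with SMAD6, an inhibitor of BMP signalling, at 0.93 and -1.498, but 1 of its 3 probe sets at -0.01 in the first pair. Histone genes had -0.50 and 0.01 over 7 genes. ATF4 targets had -0.03 and 0.26, G1 regulators 0.06 and -0.36, and fatty acid synthesis -0.14 and -0.61. In the last of these 1 of 16 genes was at least 1.5-fold lower with sunitinib present, and 8 without it, where 12.6% of all genes were.

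**Figure D4:**
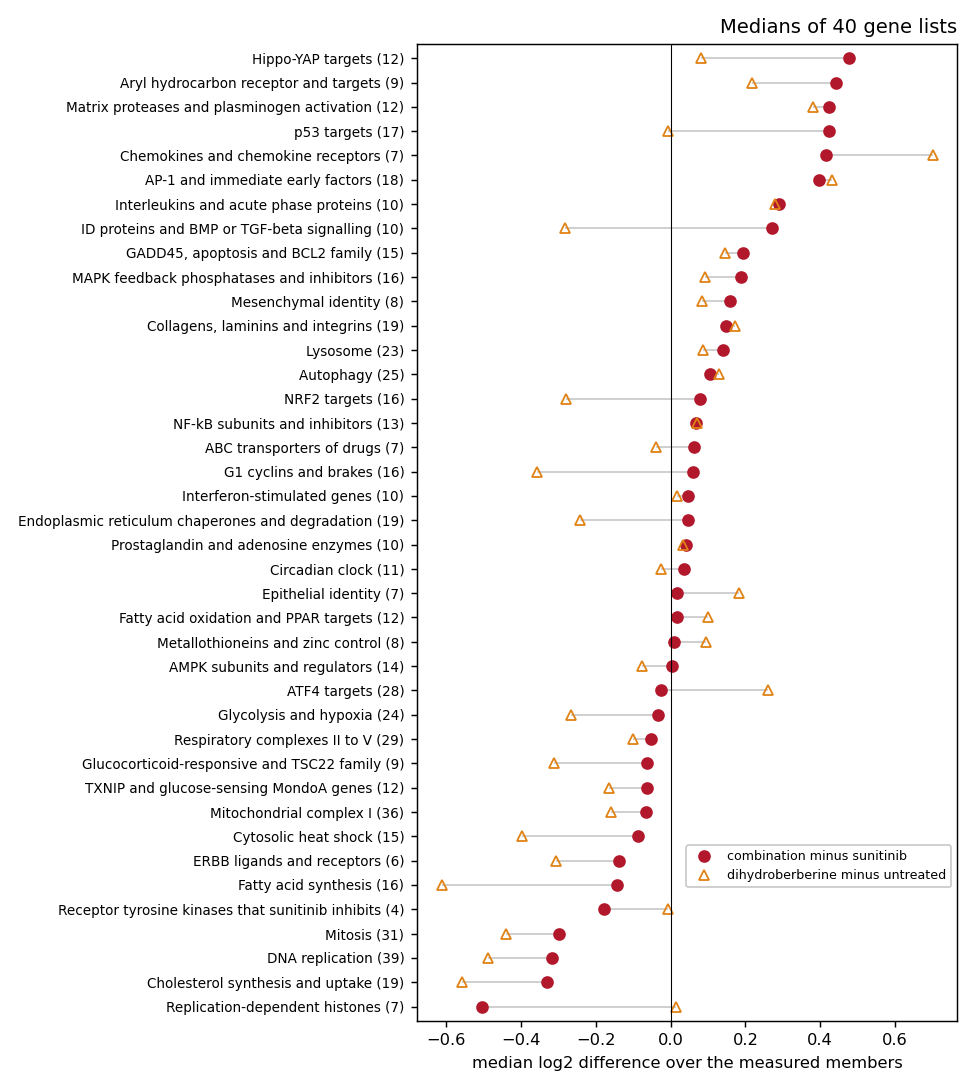
Median log2 difference of each of the 40 gene lists, with the number of measured members in brackets, for the combination minus sunitinib (filled circles) and dihydroberberine minus untreated (open triangles). Lists with p53 targets, at 0.42 and -0.01, and histones, at -0.50 and 0.01, have long lines between the 2 marks, and AP-1 factors, at 0.40 and 0.43, a short one.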

How the data were processed

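Total RNA of A549 cells was hybridised to 1 array per condition. Per the labels' protocols it was labelled with biotin by a 3′ IVT Express kit. The design text names an Agilent array, but probe set and control names are those of Affymetrix. The authors deposited log2 probe set values, whose scale was read from their range (3.01 to 15.36). Per the submitters' processing notes, the tool was Affymetrix Expression Console. How probe values were summarized and scaled between arrays is not stated in these sources.

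Of 49293 gene probe sets, 44988 had 1 gene symbol, 1832 several and 2473 none here, and 44961 matched a RefSeq table (GRCh38.p14) used for names. Each gene took its probe set of highest mean over the 4 arrays. A gene was kept if the combination or sunitinib array reached the median of all gene probe set values. Log2 differences were counted at 2-fold and 1.5-fold. Counts use the deposited values. For a fold printed of 1 gene, an array under the floor counted as the floor value and the fold carries the words "at least". This takes the value above the floor as signal. Where that value lies near the background probes, as for CYP1A1 and MMP1, the fold is no firm bound. The counting was tested on simulated data. The members, 40 gene lists and motifs were chosen with earlier results of these data known. Named genes were the 15 highest and 15 lowest, 5 per direction with 1 array under the floor, up to 4 members per list, and up to 6 with opposite or most unequal differences in the 2 pairs. Other genes were named after their values were seen. Promoters came from RefSeq for 8850 of 10644 genes. Python 3.11.15, numpy 2.4.6 and pandas 2.3.3 were used. One control result is not reported here.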

Additional observations from a re-analysis of the deposited data

Results flagged for a closer look

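MIR22HG was picked out because its difference with dihydroberberine had opposite signs in the 2 pairs, each past 2-fold, with 1.17 in the combination against sunitinib and -1.03 in dihydroberberine against untreated cells. The difference between the pairs was not tested.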

How the results depend on the processing

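The 79 higher and 11 lower genes became 49 and 6 with a floor at the 75th percentile, and 47 and 7 when each gene took its probe sets' mean. At 1.5-fold, the stricter floor gave 239 higher and 93 lower genes, and the mean of probe sets 218 higher. Genes at least 2-fold higher in both dihydroberberine pairs numbered 28 and 27 under these settings, against 43. Those lower in both numbered 2 with the mean of probe sets and 7 with no floor, against 4. Quantile normalization gave 74 and 12 genes at 2-fold, with 74 and 11 of the same genes, and centring each array on its median gave 80 and 11. A named gene was compared only in settings that kept it, so a gene left out did not count as lost. MARCHF4, STON1, EGR1 and RBM24, for example, were left out where both arrays had to be above the floor. Of 44 named genes past 2-fold none changed sign and 15 fell under 2-fold in at least 1 setting that kept them. With the mean of probe sets these were GDPD1 (0.97), NDRG1 (0.66), EPAS1 (0.66), FOSL1 (0.68), AXL (0.79), MCL1 (0.80), SULF2 (0.79), FOSL2 (0.82), ZFP36L1 (0.16), MIR22HG (0.95), INSIG1 (-0.98), TENT5A (-0.93) and TSC22D3 (-0.94). With values raised to the floor they were MAFF (0.37) and MMP1 (0.30). Of the 40 lists, 33 kept the sign of their median under every setting that gave one, and the 7 that did not had medians no farther from 0 than 0.06. The median of p53 targets ran from 0.32 to 0.42, of replication genes from -0.36 to -0.32 and of histones from -0.51 to -0.26. No paired analysis was possible because each group held 1 array. Signals near the floor may be background.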

Other observations

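Beyond the lists, several of the 79 higher genes encode surface or secreted proteins, and were chosen here after their values were seen. EPGN, epigen, a ligand of the EGF receptor, was at 10.91 in the combination, against 9.51 with sunitinib (2.65-fold higher), and its 8 probe sets gave 1.07 to 1.73. CPA4, a carboxypeptidase, was 2.43-fold higher, GPRC5A, an orphan receptor, 2.31-fold, and TFPI2, a protease inhibitor of the matrix, 2.16-fold, with 1.11 to 1.56 over 3 probe sets. The combination was near untreated cells for GPRC5A (11.38 against 11.29) and TFPI2 (11.99 against 11.92), and the sunitinib array lay below both. EPHA2, an ephrin receptor, was at 9.85 against 8.74, and SOX9, a transcription factor of progenitor cells, at 10.91 against 9.79. PDCD1LG2, the immune checkpoint ligand PD-L2, was at 7.41 in the combination and at 5.399, under the floor, with sunitinib (at least 1.58-fold higher). ESM1, a secreted proteoglycan, was at 7.41 and 5.55 (at least 1.58-fold). BEX2 and SHISA2 were at 9.86 and 9.72 in the combination, against 8.61 and 8.71 with sunitinib, and at 8.68 and 8.54 with dihydroberberine, against 7.57 and 7.37 in untreated cells. For these 2 genes the combination array was the highest of the 4 and the untreated array the lowest.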
